A study of Mus musculus with 4 samples.

Results

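The comparison described here is RU486 against placebo in mammary tumours of MMTV-PAX8PPARg mice, and it rests on 2 of the 4 arrays of the study, 1 for each treatment. The mice carried a transgene in which the mouse mammary tumour virus promoter, active mainly in mammary epithelium, drives a fusion of the thyroid transcription factor PAX8 with the nuclear receptor PPARg. That promoter itself responds to progestins and glucocorticoids. The mice were nulliparous females of the FVB strain, and their ages were not stated beyond a match between genotypes. The tissue is labelled as mammary tumour, whereas the extraction protocol speaks of excised mammary gland. Both groups had received 15 mg of the progestin MP (Depo-Provera, medroxyprogesterone acetate) and then 4 weekly doses of 1 mg of the carcinogen DMBA by gavage. Pellets with a 60-day release, one holding placebo and the other 2.5 mg of RU486 (mifepristone), were implanted under the skin 1 day after DMBA dosing ended, and once more 60 days later. The other 2 arrays were made from tumours of wild-type (WT) FVB littermates under the same schedule. For each array equal amounts of RNA from 5 mice were combined, so the spread between mice is not known, no difference has a test or an error, and every difference below is a description of a pair of pools.

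The genes compared were the 12393 with a probe set of their own symbol on the array, and each was represented by its brightest probe set. A level is the probe set signal, given below as the placebo value followed by the RU486 value. A difference is the RU486 value minus the placebo value of log2(signal + 16), after centring of the arrays on their medians, so that 1.00 log2 is 2-fold and low genes have differences smaller than their true fold. The brightest of 27 control probe sets for bacterial RNA, absent from mouse tissue, read 8.3 on the placebo array and 35.3 on the RU486 array, and a signal at or under that value is called within the background range. Where a gene has several probe sets and they lay 2-fold or more apart, their lowest and highest differences follow the value. For a gene within that range on 1 array the difference is given as a lower bound, computed against the brightest control of that array. A gene was counted as higher or lower when its 2 measured values differed at least 2-fold on this scale and its brighter signal lay above the background range, so a counted gene can have a bound under 2-fold. Near-identical gene copies, as in the keratin, kallikrein, Saa, Sprr, casein and immunoglobulin families, may share signal on such arrays.

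RU486 blocks the progesterone receptor and the glucocorticoid receptor. In the mammary gland, progesterone acts on luminal cells that hold estrogen and progesterone receptors, and these hormone-sensing cells pass the signal to their neighbours through secreted factors, chiefly RANKL and WNT4. The neighbours are secretory alveolar precursors, which depend on ELF5 and STAT5, and contractile basal cells, which lie on the basement membrane. The gland is embedded in fat and holds a lymph node, so excised tissue can contain adipocytes and lymphocytes beside epithelium. PPARg is the master regulator of adipocyte differentiation. Tumours induced by a progestin and DMBA can take a glandular or a squamous, keratinising form, in which mammary cells make the proteins of the epidermis.

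Both arrays had the same trimmed mean signal but differed in other ways. Spike-in controls were 2.42 times as bright on the RU486 array as on the placebo array, and 22.8% of genes lay within the background range there, against 13.3% on the placebo array. The difference also moved with brightness: with the genes ranked by level in 10 bins, the median of bin 2 was 0.57, that of bin 8 -0.04, that of bin 5 0.06 and that of bin 10, the brightest, 0.27, and with quantile normalization, which forces the same distribution on the arrays, these became 0.17, 0.00, 0.06 and 0.00. Of the genes named below as 2-fold higher, 15 came under 2-fold with quantile normalization: Ccnd1, Csn2, Ddit4, Gjb6, Hspa5, Id4, Jund, Krt4, Krt31, Ldha, Pgk1, Pkm, Rarb, S100a10 and Snai1. None of those named as lower did so. The ratio of 3' to 5' control signal was 2.89 and 3.01 for Gapdh and 1.05 and 1.32 for Actb. Markers of mammary epithelium were present on both arrays: the simple keratin genes Krt8 and Krt18, the epithelial adhesion gene Epcam and the luminal gene Cd24a all read above 4000 on each.

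Of the 6197 genes at or above the median level, 313 were higher and 316 lower under RU486, which is 5.05% and 5.1% of them, and at 8-fold or more they numbered 20 (0.323%) and 24 (0.387%). If the arrays were not centred, the split was 230 higher and 414 lower. Over all 12393 genes, the base for the gene groups below, 7.93% were higher and 7.02% lower, and the median difference was 0.13, against 0.00 without centring and 0.02 with quantile normalization. Group medians are to be read against that 0.13.

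The top 30 on each side were taken from the 6197 genes at or above the median level, a level being the mean over the 4 arrays. Genes under that level, such as Notum, Krt25, Pck1 and Nrg4, were left out even where their differences were larger. Within this set, the 30 genes with the largest positive differences were dominated by secreted proteases, inflammatory proteins and the proteins of keratinising epithelium. The largest belonged to the stromelysin gene Mmp10 at 0.5 and 1385 (at least 63.2-fold higher), the collagenase gene Mmp13 at 5.4 and 1175 (at least 53.8-fold higher), the serum amyloid gene Saa3 at 23 and 2063 (5.87 log2) and Hmga2, a chromatin protein of embryonic and tumour cells, at 45.8 and 2886 (5.69 log2). They also held the annexin gene Anxa8 of stratified epithelium at 90.7 and 1102 (3.52 log2) and Tnfrsf19, a TNF receptor family member, at 234 and 1513 (2.75 log2). Several were low on the placebo array rather than unusually high on the RU486 array. Hmga2 read 3671 on the WT placebo and 7073 on the WT RU486 array, so the PAX8PPARg placebo value stood apart from the other 3. Of the 30 genes, 15 were dimmest of the 4 arrays on the PAX8PPARg placebo array, against a share of 20% of all genes above the level filter, and 18 were brightest on the PAX8PPARg RU486 array, against 22%. Since the 30 were taken for a low placebo and a high RU486 signal, these shares describe the pools and support nothing further.

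Among genes at or above the same median level, the 30 with the largest negative differences held adipocyte, immunoglobulin and hormone-sensing epithelial genes. They were led by Cyp2e1, a cytochrome P450 enzyme of liver and fat, at 3199 and 55.4 (-5.36 log2), the adiponectin gene Adipoq at 4509 and 123 (-4.90 log2), Tnfsf11, the gene of RANKL, at 3139 and 102 (-4.61 log2, probe sets from -4.61 to -2.37 log2), the calmodulin-binding gene Pcp4 at 2011 and 77.6 (-4.30 log2) and the estrogen receptor coactivator gene Cited1 at 1901 and 105 (-3.85 log2). For 27 of the 30 the PAX8PPARg placebo array was the brightest of the 4, against 27.2% of all genes above the level filter, but as they were taken for a high placebo signal this share, too, supports nothing further. Other members were the imprinted proteolipid gene Nnat at 1108 and 71.4 (-3.55 log2), the eosinophil ribonuclease gene Ear3 at 728 and 77.9 (-2.85 log2) and the scaffold gene Iqgap2 at 843 and 89.8 (-2.89 log2). The set also held the defensin gene Defb1 at 4074 and 268 (-3.71 log2), the stanniocalcin gene Stc2 at 3603 and 342 (-3.20 log2), the dipeptidase gene Dpep1 at 1501 and 139 (-3.16 log2), the IgG Fc binding protein gene Fcgbp at 3171 and 269 (-3.35 log2) and the calcium-activated chloride channel regulator gene Clca3a2 at 534 and 57.2 (-2.78 log2). Since a pool holds whole tissue, fewer cells of a type and less RNA per cell cannot be told apart in these values or in any below.

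**Figure D1:**
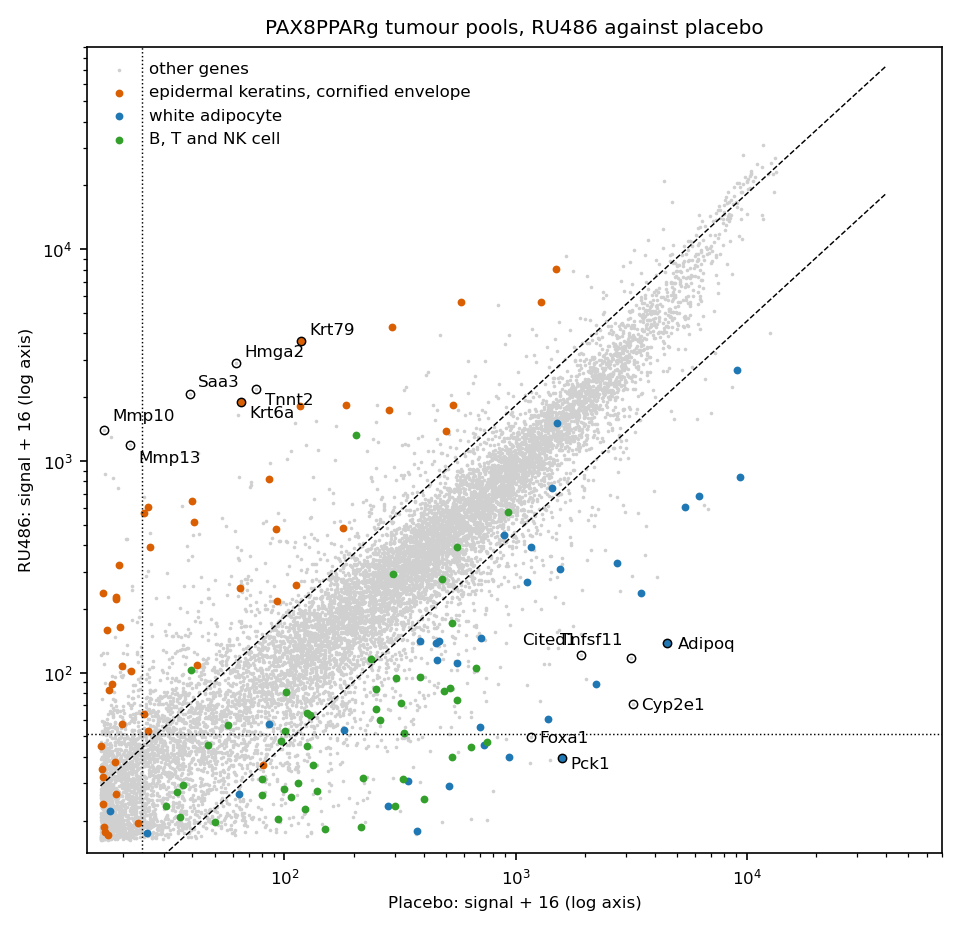
Signal under placebo (horizontal) and under RU486 (vertical) for each of 12393 genes in the PAX8PPARg tumour pools, both as signal + 16 on log axes, 1 point per gene and 1 pooled array per axis. Dashed lines mark 2-fold after centring and dotted lines the brightest bacterial control of each array. Epidermal keratin and cornified envelope genes (orange) lie mostly above the diagonal, with Krt6a at 48.6 and 1889.9, and white adipocyte (blue) and B, T and NK cell genes (green) mostly below it, with Adipoq at 4509 and 123.

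The start regions of 4 of the genes with the largest positive differences are shown because some protease and epidermal genes on this list share a letter pattern there. AP-1, the dimer of FOS and JUN proteins, binds TGANTCA, and this motif was searched on both strands in the windows from 250 bases before to 50 bases after each start given by RefSeq (GRCm38.p6). Of the 30 genes with the largest positive differences, 24 had a window, and 6 of these, 25%, held the motif, namely Mmp10, Mmp12, Mmp13, Sprr1a, Krtdap and Dmkn. The Mmp genes among them are neighbours on chr9, and Krtdap and Dmkn are neighbours on chr7, so the 6 are not independent of each other. The motif was in a window of 8.97% of all 27025 genes in the table, and in 1 of 16 of the genes with the largest negative differences. In the sequences below, written 5' to 3' along the gene's strand, capitals mark the motif. Mmp10 (chr9:7502092-7502391, + strand) and Mmp13 (chr9:7272264-7272563, + strand) lie in the same protease cluster, with the motif starting 63 and 35 bases before the start. Krtdap (chr7:30787655-30787954, + strand) makes a secreted protein of differentiating keratinocytes and has it 81 bases before the start. Sprr1a (chr3:92485832-92486131, minus strand) makes a cornified envelope precursor and has 2 matches, at 146 and 116 bases. A match of letters is no evidence that a factor bound there in these tumours.
Mmp10: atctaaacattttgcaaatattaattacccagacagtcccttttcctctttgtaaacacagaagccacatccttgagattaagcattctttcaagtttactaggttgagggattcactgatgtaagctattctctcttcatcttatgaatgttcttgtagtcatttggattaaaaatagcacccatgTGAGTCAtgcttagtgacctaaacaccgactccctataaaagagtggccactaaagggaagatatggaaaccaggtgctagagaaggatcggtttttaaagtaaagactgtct
Mmp13: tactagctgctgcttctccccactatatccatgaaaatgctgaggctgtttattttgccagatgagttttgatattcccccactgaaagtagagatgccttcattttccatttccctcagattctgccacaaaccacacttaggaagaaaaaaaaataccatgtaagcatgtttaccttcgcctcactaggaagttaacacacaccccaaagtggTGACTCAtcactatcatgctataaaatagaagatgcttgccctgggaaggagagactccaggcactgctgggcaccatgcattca
Krtdap: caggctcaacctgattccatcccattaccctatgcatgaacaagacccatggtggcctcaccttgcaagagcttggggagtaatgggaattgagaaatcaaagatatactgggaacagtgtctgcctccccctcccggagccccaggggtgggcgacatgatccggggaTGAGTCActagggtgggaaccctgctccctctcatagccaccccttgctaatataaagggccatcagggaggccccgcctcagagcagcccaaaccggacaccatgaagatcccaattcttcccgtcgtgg
Sprr1a: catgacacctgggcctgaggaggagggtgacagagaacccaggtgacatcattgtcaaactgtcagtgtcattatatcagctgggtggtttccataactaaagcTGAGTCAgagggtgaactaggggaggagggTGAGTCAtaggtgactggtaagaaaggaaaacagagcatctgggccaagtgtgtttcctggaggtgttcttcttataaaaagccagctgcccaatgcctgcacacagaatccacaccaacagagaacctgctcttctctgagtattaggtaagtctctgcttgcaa

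A second pattern, TTGCNNAA, which C/EBP factors bind, was held by 8 of the 24 genes with the largest positive differences and a window, among them Saa1, Saa3, S100a9 and Ptgs2, by 2 of 16 with the largest negative ones and by 12.2% of all genes. The NF-kB motif GGGANTTTCC was in 0 of the first set, 1 of the second and 0.466% of all genes. The palindrome of the receptors that RU486 blocks, GNACA and TGTNC with 3 bases between, was in 0 and 0 of the same sets and in 0.537% of all, and the PPAR and RXR repeat, AGGTCA and AGGTCA with 1 base between, in 0 and 0 and in 0.0481%. Each motif was searched on both strands of the same windows, which say nothing of sequence farther from the start.

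Keratins of the epidermis were higher in the RU486 pool almost throughout. Of 15 measured, 13 were higher and 0 lower, with a median of 2.57. The basal layer keratins Krt5 and Krt14 pair with each other and are used by mammary basal cells as well. Krt5 read 1278 and 5637 (2.26 log2) and Krt14 1475 and 8034 (2.57 log2, probe sets from 1.23 to 2.85 log2). Krt15 of resting basal cells read 523 and 1828 (1.91 log2). Their partners above the basal layer stood at 10.3 and 374 (4.02 log2) for Krt1 and 482 and 1369 (1.61 log2) for Krt10. The keratins of wounded and overgrowing epidermis were higher too, with Krt6a at 48.6 and 1889.9 (5.02 log2), Krt16 at 9.7 and 588 (4.69 log2), Krt6b at 0.4 and 222 (at least 10.7-fold higher) and Krt17 at 267 and 1725 (2.75 log2, probe sets from 0.24 to 2.75 log2). Krt79 and Krt80, which mark hair follicle openings and suprabasal cells, read 102 and 3656 (5.10 log2) and 24.7 and 499 (3.79 log2). The keratins of stratified mucosa were at the edge of detection. Krt4, counted as higher at 9.6 and 37.1 (1.19 log2), lay just above the brightest bacterial controls, 8.3 and 35.3. Krt13 lay within the background range on both arrays. The RU486 array was the brightest of the 4 for 12 of the 15 genes, above the WT placebo array as well, where Krt5 read 2082 and Krt79 494.

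Later steps of cornification went the same way. Of 32 genes of the cornified envelope, 23 were higher and 1 lower (median 2.38). Within the background range lay 18 of the 32 under placebo and 9 under RU486, with 8 on both arrays. The keratin-bundling filaggrin gene Flg read 2.6 and 207 (at least 10.1-fold higher), the transglutaminase gene Tgm1, whose enzyme cross-links the envelope, 75.9 and 459 (2.50 log2), and Casp14, the protease of terminal differentiation, 1.1 and 144 (at least 7.2-fold higher). The retroviral-like protease gene Asprv1, which processes filaggrin, was at 276 and 4267 (4.01 log2). Precursors of the envelope differed strongly, with Sprr1a at 567 and 5597 (3.40 log2), Sprr1b at 3.3 and 306 (at least 14.6-fold higher), Rptn at 8.6 and 552 (4.66 log2, probe sets from -0.34 to 4.66 log2) and Calml3 at 23.9 and 633 (4.16 log2). The one lower gene was Sprr2f at 65.1 and 20.5 (at least 1.44-fold lower). Several late cornified envelope genes could not be read, since Lce1g, Lce1h and Lce1l lay within the background range on both arrays.

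The junctions and proteases that belong to this programme differed unevenly. Among 10 desmosome genes, 5 were higher and 1 lower. The cadherin genes of stratified epithelium stood higher, with Dsc1 at 7.8 and 182 (at least 8.92-fold higher) and Dsc3 at 41.7 and 247 (2.32 log2), as did the plakophilin gene Pkp1 at 238 and 1217 (2.42 log2), while Dsg2, the desmoglein of simple epithelium, read 1139 and 429 (-1.24 log2) and the plakoglobin gene Jup 2049 and 1975 (0.08 log2). Of 16 kallikreins and skin protease inhibitors, 9 were higher and 0 lower. The kallikreins that shed the outer skin layer were among them, with Klk6 at 24.1 and 430.2 (3.61 log2), Klk7 at 37.5 and 524 (3.47 log2), Klk10 at 119 and 647 (2.43 log2) and Klk11 at 24.1 and 242 (2.82 log2), beside the cystatin-related inhibitor gene Stfa3 at 22 and 378 (3.51 log2). The membrane proteases St14 and Prss8, present in simple epithelium too, read 980.4 and 1109 (0.31 log2) and 388 and 316 (-0.15 log2). Of 13 genes of the S100 calcium-binding family, 6 were higher, and beside the calprotectin genes S100a8 and S100a9 these included S100a14 at 402 and 2605 (2.78 log2), S100a6 at 4733 and 16634 (1.94 log2) and S100a10, which anchors plasminogen at the cell surface, at 6228 and 14415 (1.34 log2). The water and glycerol channel gene Aqp3 of epidermis read 46.7 and 1628 (4.85 log2, probe sets from 2.29 to 4.85 log2).

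Epidermal transcription factors differed less than the keratins. Of 19 epidermal factors, 5 were higher and 2 lower, with a median of 0.34. Trp63, the master factor of stratified epithelium, did not differ 2-fold at 1726 and 1637 (0.06 log2), nor did Grhl1 at 791 and 823 (0.19 log2) or Tfap2a at 577 and 609 (0.21 log2, probe sets from 0.21 to 1.60 log2). Higher were Klf5, a factor of proliferating keratinocytes, at 226 and 1247 (2.52 log2), Sox15 at 22.2 and 115 (1.91 log2), Ovol1 at 51.4 and 184 (1.70 log2, probe sets from 0.35 to 1.70 log2), Hopx at 311 and 818 (1.48 log2) and Pou2f3 at 2.5 and 42.2 (at least 2.63-fold higher). Lower were Ovol2, which keeps cells epithelial, at 45.4 and 4 (at least 1.09-fold lower) and Barx2 at 72.8 and 7.9 (at least 1.58-fold lower). Of the genes of the epidermal lipid barrier 2 of 10 were higher, the long-chain elongase gene Elovl4 at 66.5 and 315 (2.14 log2) and the sulfotransferase gene Sult2b1 at 34.6 and 99.9 (1.33 log2).

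Hair genes were split between a few with high signals and many at the edge of detection. The inner root sheath keratin Krt25 read 3 and 732 (at least 33.8-fold higher). Its partner Krt27 read 8.8 and 656 (4.89 log2), and the trichohyalin gene Tchh of the same sheath 19.9 and 1073 (5.06 log2). The cortical hair keratins counted as higher, such as Krt31 at 12.2 and 47.5 (1.30 log2), Krt34 at 22 and 72.6 (1.35 log2) and Krt81 at 28.7 and 90.8 (1.39 log2), all stayed under 100 on the RU486 array, where the background range itself reached 35.3. In all 16 of 27 hair genes were higher and 2 lower, with a median of 1.35 that became 0.99 with quantile normalization, and 6 lay within the background range on both arrays. On the WT placebo array Krt27 read 1300.1 and Tchh 731, and the RU486 array was the brightest of the 4 for 6 of the 27. Whether skin or follicles lay in any of the pools was not tested.

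**Figure D2:**
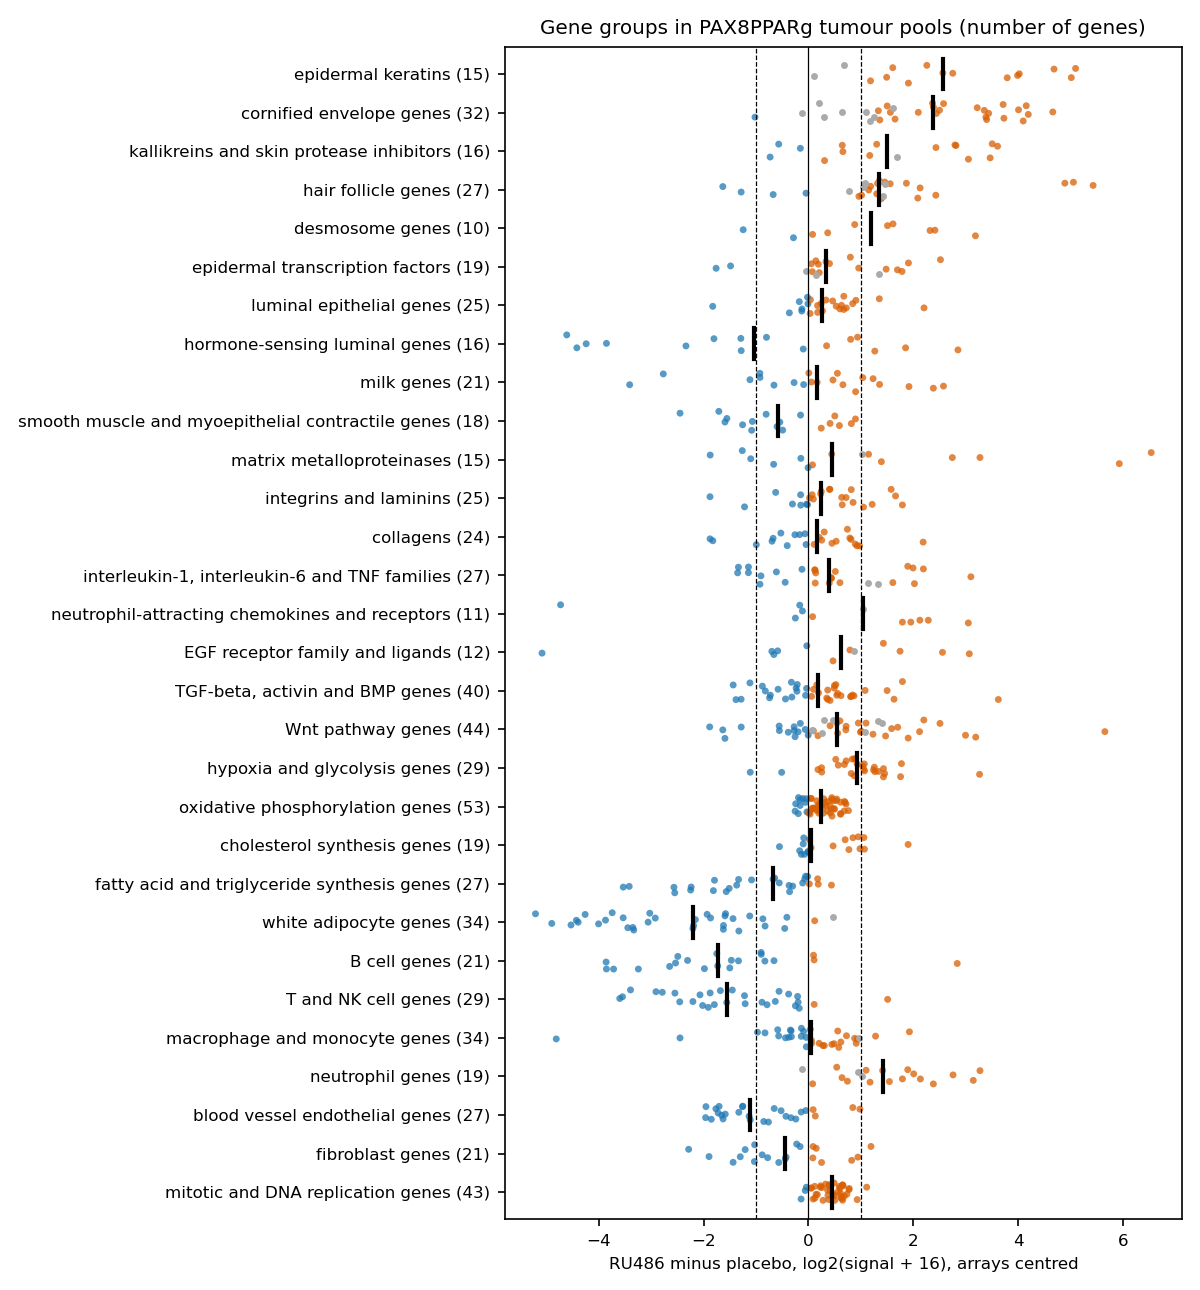
Difference between RU486 and placebo in the PAX8PPARg pools (log2 of signal + 16, arrays centred) for the measured genes of 30 groups, 1 point per gene, coloured orange above 0 and blue below, with the group median as a black bar and the 2-fold limits as dashed lines. Grey points lie within the background range on both arrays. Epidermal keratins have the highest group median, 2.57, and white adipocyte genes the lowest, -2.20.

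General luminal epithelial genes, by contrast, stayed close between the pools. Of 25, 2 were higher and 1 lower, with a median of 0.27, near that of all genes. The shares, 8% and 4%, compare with 7.93% and 7.02% of all genes. Epcam read 5564 and 7339 (0.53 log2), the E-cadherin gene Cdh1 1934 and 3177 (0.85 log2), Krt8 4798 and 6035 (0.46 log2) and the tight junction gene Cldn7 1159.8 and 969 (-0.12 log2). The genes past 2-fold were the keratins Krt7 at 1990.4 and 4659 (1.35 log2), Krt23 at 919 and 3917 (2.21 log2) and Krt19 at 8630.3 and 2209 (-1.83 log2). The summed signal of the 25 genes was 48485 under placebo and 56610.3 under RU486.

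Genes of hormone-sensing luminal cells were more often lower than higher in the RU486 pool. Of 16, 8 were lower and 3 higher, with a median of -1.04. Both factors that define the lineage were within the background range under RU486: Foxa1, the pioneer factor that opens chromatin for the estrogen receptor, read 1146 and 33.6 (at least 20.7-fold lower), and the receptor gene Esr1 itself 363 and 2.3 (at least 6.74-fold lower). Gata3, the luminal lineage factor, was at 1288 and 325 (-1.80 log2), and the progesterone receptor gene Pgr at 236 and 78 (-1.29 log2). The paracrine signals followed, with Tnfsf11 as given above and Wnt4 at 404 and 141 (-1.28 log2). Tnfrsf11a, the gene of the RANKL receptor RANK, read 28.4 and 35.5 (0.35 log2), too close to the background range for a lower level to be seen. Tnfrsf11b, the gene of its decoy osteoprotegerin, was higher at 52.5 and 209.8 (1.85 log2). Id4, an inhibitor of differentiation made in basal cells, and the surface gene Ly6d were the other higher genes, at 4762 and 10468 (1.27 log2) and 312 and 2143 (2.85 log2). The PAX8PPARg placebo array was the brightest of the 4 for 9 of these 16 genes, against 26.1% of all genes. Foxa1 read 247 and 41.5 and Pgr 37.3 and 37.9 on the WT placebo and RU486 arrays. For Pgr the PAX8PPARg RU486 pool thus lay above both WT values. Foxa1, within the background range in that pool, lay below the WT placebo value and has no clear order against the WT RU486 value. Pax8 gave no comparison, since it lay within the background range on both arrays.

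The alveolar and milk programme had no common direction. Stat5a and Stat5b, which relay prolactin signals, were lower, Stat5a at 1399 and 338 (-1.86 log2) and Stat5b, just past the 2-fold limit, at 376 and 162, and so was Cish, a feedback target of STAT5, at 366 and 133 (-1.23 log2). Elf5, the alveolar master factor, read 1650.4 and 782 (-0.93 log2) and stayed within 2-fold. Among 21 milk genes, 6 were higher and 3 lower. Caseins were close or higher, with Csn1s1 at 2775 and 2375 (-0.09 log2) and Csn2 at 3159 and 6796 (1.23 log2), and the whey genes Wap and Lalba read 34.2 and 257 (2.58 log2) and 42 and 119.6 (1.36 log2). Lower were the milk mucin gene Muc15 at 2818 and 227 (-3.41 log2), the mucin-like gene Glycam1, also made by lymph node vessels, at 3649 and 475 (-2.77 log2) and the xanthine dehydrogenase gene Xdh of the milk fat globule at 212 and 80 (-1.11 log2). Both PAX8PPARg pools lay far below the WT placebo array for whey genes, where Wap read 9419 and Lalba 2456.

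Contractile genes of myoepithelium and smooth muscle were lower in part. Of 18, 7 were lower and 0 higher. The smooth muscle myosin gene Myh11 read 2015 and 323 (-2.45 log2, probe sets from -2.45 to -0.30 log2), the calponin gene Cnn1 516 and 132 (-1.71 log2), the oxytocin receptor gene Oxtr, through which myoepithelium contracts at milk ejection, 171 and 42 (-1.55 log2) and the light chain kinase gene Mylk 2998 and 1136 (-1.25 log2). Acta2, the smooth muscle actin gene, read 5395 and 3366 (-0.54 log2, probe sets from -3.51 to -0.54 log2). It was not counted because its brightest probe set stayed within 2-fold, though its probe sets lay far apart. Krt5 and Krt14, the keratins of the same basal cells, were higher in these pools, so contractile and keratin genes differed in opposite directions.

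Secreted proteases differed widely among themselves. Of 15 matrix metalloproteinases, 6 were higher and 3 lower. The collagenase Mmp13 and stromelysin Mmp10 led, followed by the gelatinase gene Mmp9 at 150.4 and 1452 (3.27 log2) and the macrophage elastase gene Mmp12 at 149 and 995 (2.75 log2). The proteases of resting stroma hardly differed, with Mmp2 at 1336 and 1285 (0.08 log2), Mmp3 at 1304 and 1073 (-0.14 log2) and the membrane-type Mmp14 at 992 and 1235 (0.45 log2), while Mmp11 and Mmp19 were lower at 1181 and 282 (-1.87 log2) and 263 and 90.2 (-1.26 log2). On the WT arrays Mmp10 read 2303 under placebo and 844 under RU486, so of the 4 pools only that of PAX8PPARg placebo read within the background range. The inhibitor gene Timp1 was higher with the proteases at 318 and 2204 (2.86 log2), whereas Timp2 and Timp3 read 2672 and 1915 (-0.34 log2) and 2693 and 3925 (0.67 log2) and Timp4 was lower at 85.5 and 12.4 (at least 1.8-fold lower). The plasminogen activator gene Plau and its receptor gene Plaur were higher at 1883 and 4734 (1.46 log2) and 102 and 289.5 (1.51 log2). Of 14 ADAM and ADAMTS proteases none was 2-fold higher or lower, their range being -0.55 to 0.85.

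Most genes of matrix and adhesion stayed within 2-fold. Of 25 integrins and laminins, 5 were higher and 2 lower, with a median of 0.25. Laminin-332, the laminin under stratified epithelium, is built from chains of which 2 were measured, Lama3 at 655 and 1406 (1.22 log2) and Lamb3 at 591 and 1637 (1.58 log2), and both were higher, as were the integrin genes that grip it, Itga3 at 209.9 and 636 (1.66 log2) and Itgb4 at 181 and 607 (1.79 log2). Itga6, the partner of Itgb4, read 3229.6 and 2873 (-0.03 log2). The laminin gene of muscle and stroma, Lama2, was lower at 679 and 256 (-1.22 log2), and so was the smooth muscle integrin gene Itga8 at 1413 and 339 (-1.88 log2). The fibrillar collagen genes Col1a1 and Col3a1 stayed within 2-fold at 5462 and 9480.1 (0.93 log2) and 7262 and 11642 (0.81 log2, probe sets from -0.25 to 0.81 log2), and of 24 collagens 1 was higher, Col12a1 at 113 and 519.7 (2.19 log2), and 2 lower, Col9a1 at 657 and 151 (-1.88 log2, probe sets from -1.88 to -0.77 log2) and Col4a6 at 477 and 111 (-1.82 log2). Provisional matrix proteins of wounds and tumours were higher, with the tenascin gene Tnc at 824 and 5412 (2.82 log2) and the fibronectin gene Fn1 at 2904 and 8308 (1.64 log2), and so was their receptor gene Cd44, whose protein binds hyaluronan, at 605 and 2068 (1.88 log2). Transcriptional repressors of epithelial genes were mostly lower or even: Zeb1 and Zeb2 were lower at 949 and 379.9 (-1.15 log2, probe sets from -1.15 to 0.40 log2) and 769 and 291 (-1.22 log2), Twist1 read 254 and 141 (-0.64 log2), Snai2 339 and 299.5 (-0.04 log2), and Snai1 alone was higher at 21.1 and 60.5 (1.18 log2). Igf2bp1, the gene of an embryonic RNA-binding protein, was higher at 10.1 and 59.6 (1.67 log2), beside Hmga2.

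Cytokine genes had no common direction. Of 27 genes of the interleukin-1, interleukin-6 and TNF families, 6 were higher and 4 lower, with a median of 0.40. The Il1b gene read 115 and 529 (2.19 log2), the gene of its natural antagonist Il1rn 95.2 and 396 (2.02 log2, probe sets from 1.06 to 2.50 log2) and that of the decoy receptor Il1r2 34.4 and 155 (1.90 log2), whereas the signalling receptor gene Il1r1 was even at 348 and 347 (0.13 log2). The epidermal interleukin-36 gene Il1f9 was also higher at 7.5 and 168 (at least 8.3-fold higher). Within the interleukin-6 family the shared receptor gene Il6st was lower at 2821 and 999 (-1.35 log2) and Il6ra at 374 and 145 (-1.14 log2), while Il6 lay within the background range on both arrays. Of 11 neutrophil-attracting chemokines and receptors 5 were higher and 1 lower. Cxcl1 read 78.4 and 404 (2.29 log2) and Cxcl2 0.1 and 106 (at least 5.49-fold higher), both attractants of neutrophils. Cxcl5 was just above the background range under RU486 at 0.5 and 42.3 (at least 2.63-fold higher). The myeloid growth factor gene Csf2 was at 8 and 79.6 (at least 4.32-fold higher). The exception was Cxcl15, a chemokine gene known from lung epithelium, at 783 and 11.5 (at least 14.2-fold lower). Of 37 other chemokines and receptors, 7 were higher and 9 lower, with differences from -3.15 to 1.62. Ccl3, an attractant of myeloid cells, was higher at 42.1 and 147 (1.62 log2), and lower were Cxcl12, which holds lymphocytes and precursors in tissue, at 1584 and 197 (-2.78 log2), Ccl22 at 253 and 62.6 (-1.64 log2) and the eosinophil attractant gene Ccl11 at 429.5 and 154 (-1.25 log2).

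Acute phase genes split by kind. The serum amyloid genes Saa1 and Saa2 were higher with Saa3, at 70.8 and 963 (3.63 log2) and 30.7 and 209 (2.40 log2), and the lipopolysaccharide-binding protein gene Lbp at 409.7 and 765 (1.01 log2), while the fibrinogen genes Fgg and Fgb were lower at 1383 and 94 (-3.54 log2) and 541 and 87.3 (-2.30 log2) and the orosomucoid gene Orm1 at 261 and 26.7 (at least 4.92-fold lower). Haptoglobin, read by Hp, was even at 1287 and 1137 (-0.04 log2). In the whole group 4 of 19 were higher and 3 lower. All serum amyloid genes were still brighter on the WT placebo array, where Saa1 read 8604.

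Prostaglandin and leukotriene genes had no common direction. Of 24 measured, 4 were higher and 3 lower, or 16.7% and 12.5%, against 7.93% and 7.02% of all genes, with a median of 0.16. Ptgs2, the inducible cyclooxygenase gene, read 9.3 and 271 (3.64 log2), and the next enzyme towards prostaglandin E2, Ptges, was even at 342 and 379.7 (0.28 log2), as was the degrading enzyme gene Hpgd at 93.8 and 77.3 (-0.10 log2). The receptor gene Ptger3 was lower at 628 and 46 (-3.24 log2, probe sets from -3.24 to -2.04 log2), Ptger4 read 566 and 279 (-0.85 log2) and Ptger2 129.7 and 178 (0.55 log2). The prostacyclin synthase gene Ptgis was lower at 275 and 104 (-1.14 log2). The lipoxygenase gene Alox12 was higher at 117 and 825 (2.80 log2, probe sets from 1.34 to 2.80 log2). On the WT arrays Ptgs2 read 567 and 1067, both above the PAX8PPARg RU486 value, so the PAX8PPARg placebo pool was the lowest of the 4.

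**Figure D3:**
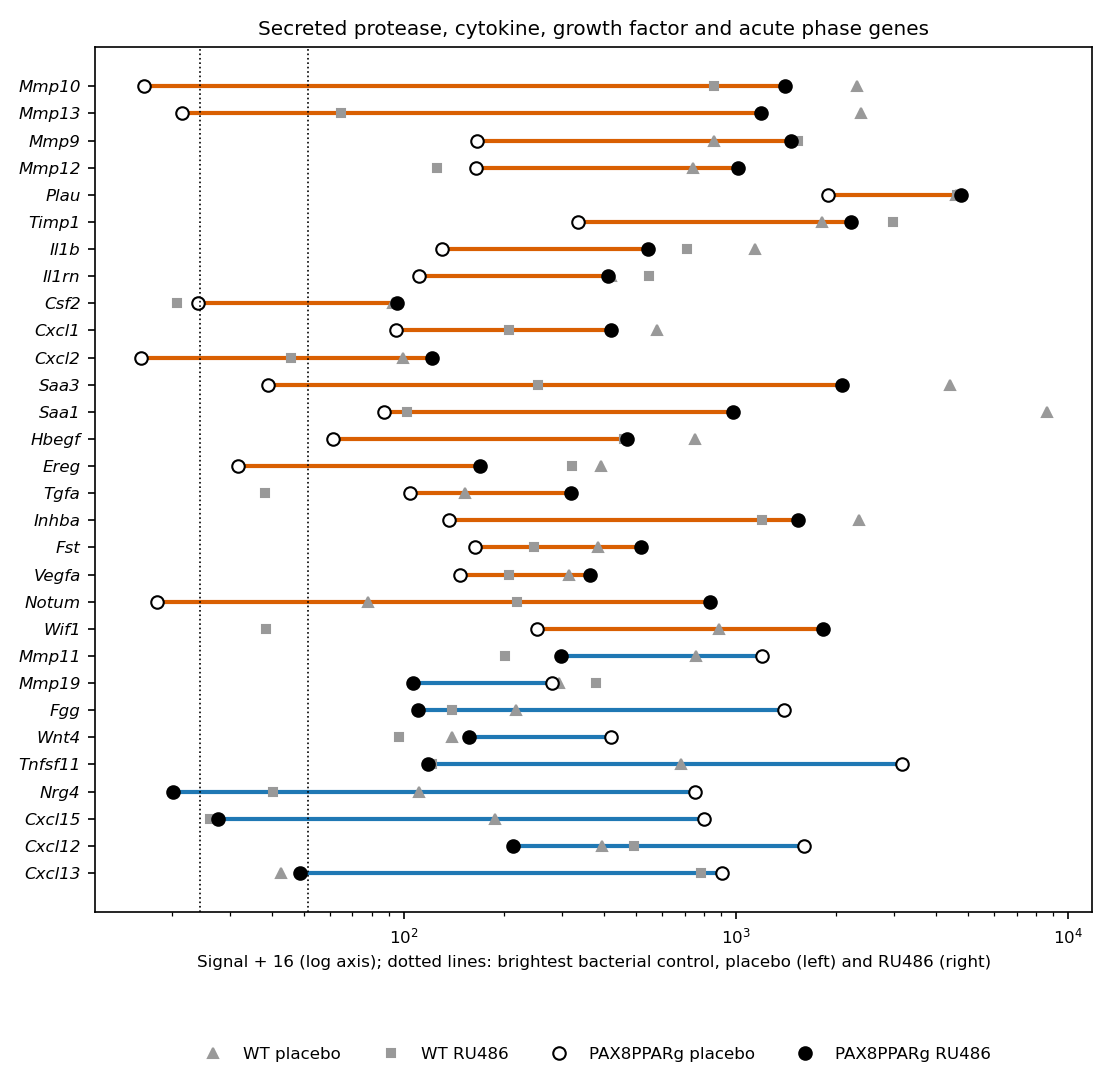
Signals of secreted protease, cytokine, growth factor and acute phase genes on the PAX8PPARg placebo array (open circles) and RU486 array (filled circles), as signal + 16 on a log axis, 1 array each, with the WT placebo (grey triangles) and WT RU486 (grey squares) arrays for comparison. Mmp10 reads 0.5 and 1385 and Nrg4 734 and 4.2, the latter within the background range.

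Ligands of the EGF receptor family differed in both directions. The gene of heparin-binding EGF, Hbegf, was higher at 45.2 and 453 (3.07 log2), as were those of epiregulin, Ereg, at 15.6 and 154 (2.56 log2), of TGF-alpha, Tgfa, at 88.2 and 303 (1.75 log2) and of epigen, Epgn, at 16.5 and 63.9 (1.43 log2). All are ligands of the receptor EGFR, whose gene Egfr read 295 and 262 (-0.03 log2, probe sets from -0.21 to 1.63 log2). Nrg4, a ligand of ERBB4 that adipocytes secrete, was lower at 734 and 4.2 (at least 13.3-fold lower), and the betacellulin gene Btc read 154 and 87.1 (-0.59 log2). Erbb2 and Erbb3 stayed within 2-fold at 308 and 393 (0.47 log2) and 2556 and 1469.6 (-0.66 log2). In all, 4 of 12 genes of the family were higher and 1 lower.

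In the TGF-beta family the activin branch stood out. Inhba, the gene of the activin A subunit, read 121 and 1518 (3.62 log2), and follistatin, Fst, which traps activin, was higher too at 147 and 501 (1.79 log2). The TGF-beta ligands themselves were close, with Tgfb1 at 217 and 311 (0.62 log2), Tgfb2 at 940.4 and 981 (0.19 log2) and Tgfb3 at 2094 and 1521 (-0.32 log2). The BMP branch was lower at Bmp4 with 175 and 50.7 (-1.38 log2), at its receptor gene Bmpr1b with 178 and 49.4 (-1.43 log2) and at its target Id3 with 924 and 379.7 (-1.12 log2). Bambi, a decoy receptor that Wnt signals induce, was higher at 314 and 838 (1.50 log2). Over 40 genes of the family, 5 were higher and 4 lower, or 12.5% and 10%, against 7.93% and 7.02% of all genes.

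AP-1 subunits and other immediate early genes had no common direction. Fosl1, a FOS protein of invasive and wounded epithelium, was higher at 19.2 and 186 (2.66 log2), Jund at 3107 and 6219.8 (1.13 log2) and the MAF factor gene Maff at 427 and 980.2 (1.30 log2), but Fos was lower at 1578 and 332 (-2.06 log2), and Jun and Junb stayed within 2-fold at 1577 and 1109 (-0.37 log2) and 41 and 73.7 (0.79 log2). Egr1 read 3577 and 3374 (0.05 log2). The connective tissue growth factor gene Ccn2 was higher at 1207 and 2917 (1.40 log2) and Ccn1 read 448 and 671 (0.70 log2). Of 32 genes in the group, 6 were higher and 2 lower.

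Of 44 Wnt pathway genes, 13 were higher and 4 lower in the RU486 pool, with a median of 0.55. Inhibitors that act as feedback on the pathway were among the higher ones. Axin2, induced by most canonical Wnt signals, read 349 and 1069.5 (1.70 log2), Notum, whose enzyme inactivates Wnt ligands, 2.1 and 817 (at least 37.6-fold higher), Nkd1 and Nkd2, inhibitors of Dishevelled, 36.4 and 96.3 (1.23 log2) and 454 and 3904 (3.19 log2), and the secreted inhibitor gene Wif1 235 and 1815 (7.99-fold). The R-spondin receptor genes Lgr5 and Lgr6 were higher at 7.9 and 78.8 (at least 4.28-fold higher) and 424 and 1829 (2.20 log2), and the ubiquitin ligase gene Rnf43 at 285 and 536 (1.01 log2). Among the ligands Wnt10a was higher at 4.3 and 89.5 (at least 4.76-fold higher) and Wnt7a at 16.5 and 94.9 (1.90 log2), and Wnt4 and Wnt5b were lower, Wnt5b at 851 and 246 (-1.59 log2). The nuclear partner Lef1 was lower at 44.2 and 1.7 (at least 1.07-fold lower). Of 25 Notch and Hedgehog genes, 1 was higher, Shh at 21.1 and 65.3 (1.27 log2), and 3 were lower, the Notch targets Hey1 at 1077 and 404 (-1.25 log2) and Hey2 at 66.6 and 11.2 (at least 1.47-fold lower) and the glycosyltransferase gene Mfng at 451 and 118 (-1.67 log2).

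The receptors of RU486 and the genes they control were read in both pools. Beside Pgr, the glucocorticoid receptor gene Nr3c1 read 1179 and 908 (-0.24 log2). Of 26 nuclear receptors, 4 were lower, Esr1, Pparg at 498 and 13.2 (at least 9.13-fold lower), Esrrb at 213 and 28.9 (at least 4.07-fold lower, probe sets from -2.22 to 0.76 log2) and Pgr, and 2 higher, Esrra at 40.4 and 100.3 (1.18 log2) and Rarb at 14.6 and 40.1 (1.01 log2). Rarb lay just above the brightest bacterial control of the RU486 array, 35.3. The shares of nuclear receptors, 7.69% higher and 15.4% lower, compare with 7.93% and 7.02% of all genes. Whether the Pparg probe set detects the fusion transcript was not stated, and its value was lower together with those of adipocyte genes. Target genes of the glucocorticoid receptor had no common direction, with 5 of 22 higher, 5 lower and a median of 0.03. Among classical targets, Tsc22d3, the gene of the anti-inflammatory protein GILZ, read 745 and 254 (-1.36 log2, probe sets from -1.36 to 0.97 log2), and the transcription factor gene Zbtb16 127 and 42.5 (-1.15 log2, probe sets from -2.72 to -1.15 log2). Klf9 was at 1954 and 816 (-1.11 log2, probe sets from -1.32 to 1.03 log2) and the kinase gene Sgk1 at 3441 and 1543 (-1.02 log2). The chaperone gene Fkbp5 and the clock gene Per1 missed the 2-fold limit at 520.4 and 238 (-0.95 log2) and 309 and 147 (-0.86 log2). On the higher side were the metallothionein genes Mt1 and Mt2, which bind zinc, at 908 and 2065 (1.30 log2) and 1346 and 3426 (1.47 log2). The annexin gene Anxa1 was higher at 2376 and 6269 (1.53 log2), as was the stress-induced Ddit4, which hypoxia induces as well, at 3470 and 7653 (1.27 log2).

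Adipocyte genes were lower as a block. Of 34, 28 were lower and 0 higher, with a median of -2.20. Genes of hormones made by fat were lower, Adipoq as given above, the leptin gene Lep, within the background range under RU486, at 923 and 23.8 (at least 16.7-fold lower) and the resistin gene Retn at 1371 and 44.2 (-4.39 log2). The lipid droplet genes Plin4 and Cidec read 716 and 29.6 (at least 13-fold lower) and 684 and 39.1 (-3.53 log2). Fatty acid uptake was represented by Cd36 at 3465 and 221 (-3.74 log2) and Lpl at 5367 and 586 (-3.03 log2). The lipase genes Pnpla2 and Lipe, which release stored fat, were lower together with the genes that store it, at 1533 and 294 (-2.19 log2) and 166 and 37.8 (-1.62 log2). Pck1, which feeds glycerol synthesis in fat, was at 1579 and 23.4 (at least 28.4-fold lower, probe sets from -5.21 to 0.88 log2), the glycerol channel gene Aqp7 at 359.9 and 1.9 (at least 6.68-fold lower, probe sets from -4.26 to -1.04 log2) and the carbonic anhydrase gene Car3 at 9346 and 822 (-3.35 log2, probe sets from -4.95 to -3.35 log2). Fabp4, the fatty acid carrier that endothelium and macrophages also make, was lower at 9047 and 2673 (-1.62 log2, probe sets from -4.20 to -1.62 log2). The summed signal of the 34 genes was 60440.0 in the placebo and 10030.1 in the RU486 pool, against 22832 and 8999 in the WT placebo and RU486 pools, and the placebo array was the brightest of the 4 for 31. The highest adipocyte signal was that of the PAX8PPARg placebo pool. Of the 34 genes, 1 lay within the background range under placebo and 10 under RU486. The part of fat in the lower values of other genes that fat expresses was not tested.

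Many genes of fatty acid and triglyceride synthesis were lower, and none of cholesterol synthesis was. Of 27 such genes 13 were lower and 0 higher, and they spanned the route from acetate to triglyceride. Acss2, whose enzyme activates acetate, read 1513 and 114 (-3.42 log2, probe sets from -3.42 to -1.65 log2). Acaca, the carboxylase of the committed step, read 2094 and 539.9 (-1.79 log2), and the fatty acid synthase gene Fasn 2429 and 365 (-2.55 log2). The elongase gene Elovl6 and the desaturase gene Scd1, which lengthen and desaturate the product, were lower as well, at 1276 and 183 (-2.56 log2) and 12574 and 4013 (-1.51 log2). At the triglyceride end, the acyltransferase gene Gpam of the first step was at 1874 and 565 (-1.57 log2) and Dgat2 of the last at 1907 and 136 (-3.53 log2). The desaturases of polyunsaturated fat were even, with Fads1 at 3701 and 3417 (0.02 log2) and Fads2 at 783 and 814 (0.19 log2), as was the regulator gene Srebf1 at 565 and 495 (-0.05 log2). Cholesterol synthesis was not lower at any of 19 genes: 3 were higher, Dhcr7 at 361 and 1269.7 (1.90 log2), Fdps at 357 and 698 (1.07 log2) and Mvk at 82.6 and 171 (1.06 log2, probe sets from 0.04 to 1.06 log2), and the median was 0.05. For fatty acid oxidation, 2 of 22 genes were lower, Decr1 at 1418 and 526 (-1.27 log2) and Ehhadh at 119 and 39.2 (-1.15 log2), with a median of -0.55. Of 35 genes of the TCA cycle and branched-chain amino acid breakdown, 3 were lower, Aldh6a1 at 769 and 216 (-1.62 log2), Hibch at 1209 and 472 (-1.19 log2) and Mccc2 at 194 and 77.8 (-1.03 log2). The shares lower in these 2 groups, 9.09% and 8.57%, were near the 7.02% of all genes. Of brown fat markers, Ucp1, the uncoupling protein gene of heat production, read 162 and 30.5 (at least 3.17-fold lower) and Cox8b 532 and 48.8 (-2.95 log2), while the mitochondrial coactivator gene Ppargc1a was higher at 158 and 503 (1.71 log2, probe sets from 1.08 to 2.21 log2).

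**Figure D4:**
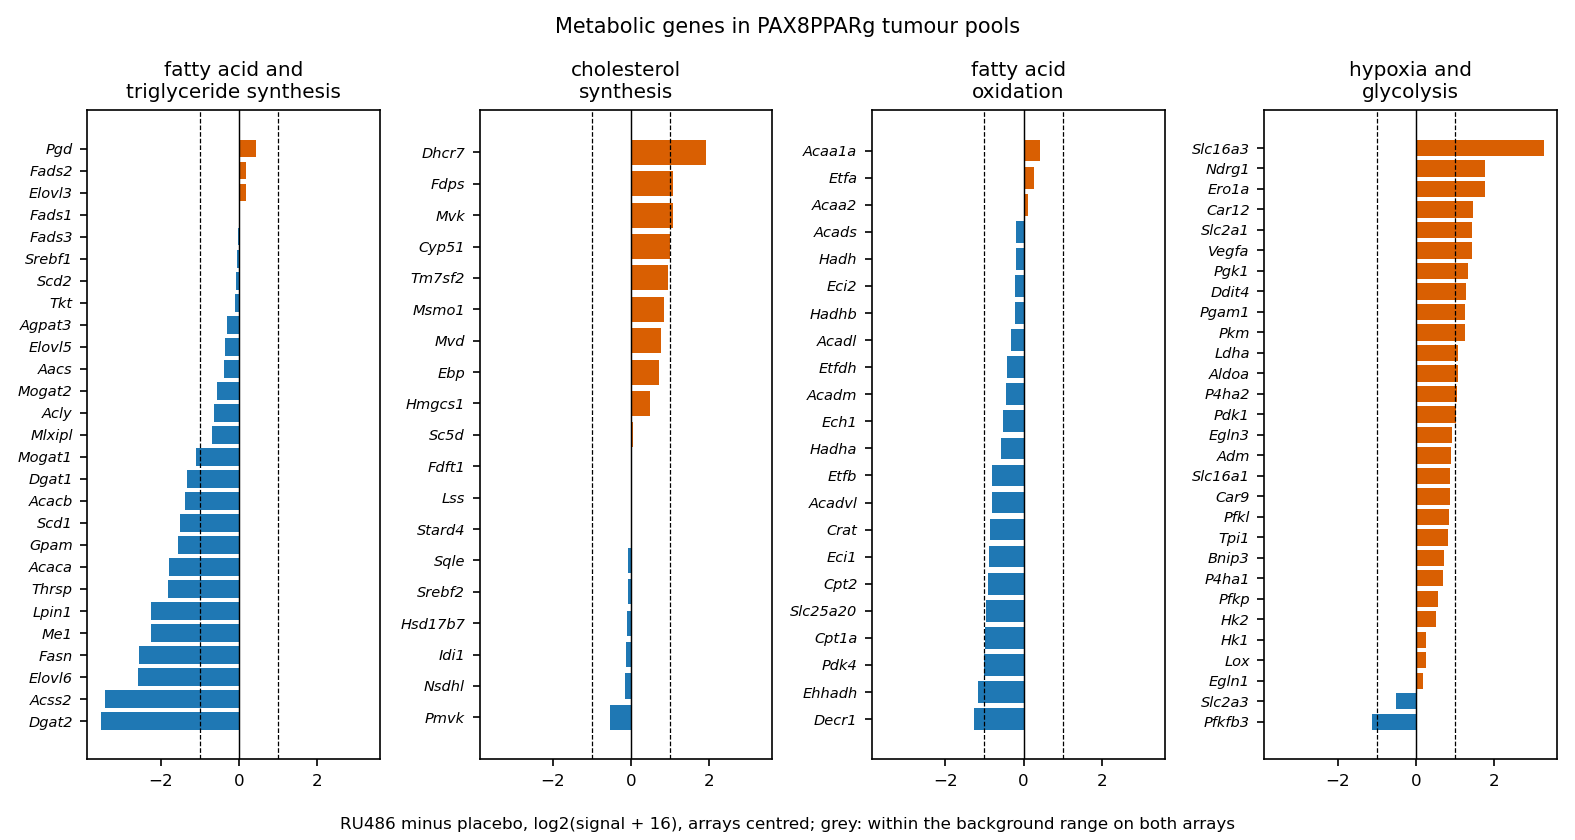
Difference between RU486 and placebo in the PAX8PPARg pools (log2 of signal + 16, arrays centred) for genes of fatty acid and triglyceride synthesis, cholesterol synthesis, fatty acid oxidation and glycolysis with hypoxia targets, 1 bar per gene, each bar a single pair of pools with no error. Dgat2 has the most negative bar of fatty acid and triglyceride synthesis, -3.53, and the lactate exporter gene Slc16a3 the most positive of glycolysis, 3.27.

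Many glycolysis and hypoxia genes were higher in the RU486 pool. Of 29 genes of glycolysis and hypoxia, 14 were higher and 1 lower, with a median of 0.93, or 0.76 with quantile normalization. The glucose importer gene Slc2a1 read 2376 and 5872 (1.43 log2), the kinase genes Pgk1 and Pkm 4348 and 10051 (1.34 log2) and 2935 and 6352 (1.24 log2), lactate dehydrogenase, Ldha, 5362 and 10302 (1.07 log2) and the lactate exporter gene Slc16a3 40 and 475 (3.27 log2). Hypoxia targets outside glycolysis were also higher, with Ndrg1 at 2096 and 6579.9 (1.78 log2), the oxidoreductase gene Ero1a at 549 and 1728 (1.76 log2), the carbonic anhydrase gene Car12 at 331 and 851 (1.45 log2) and Vegfa, the main growth factor of vessels, at 132 and 347 (1.43 log2). The lower gene was Pfkfb3 at 632 and 258 (-1.11 log2). Of 53 genes of oxidative phosphorylation none was 2-fold higher or lower, and their median of 0.24 became -0.06 with quantile normalization. Detoxifying enzymes went both ways: the glutathione transferase genes Gsta4 and Gsto1 were higher at 1638 and 9302 (2.63 log2) and 509.5 and 2036 (2.10 log2), Gstm1 was lower at 2265 and 576 (-1.81 log2), and the quinone reductase gene Nqo1 was higher at 223 and 789.9 (1.89 log2). The retinoic acid hydroxylase gene Cyp26a1 was higher at 7.1 and 109 (at least 5.63-fold higher).

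Lymphocyte genes were mostly lower in the RU486 pool. Of 21 B cell genes, 14 were lower and 1 higher, with a median of -1.73. Within the background range lay 0 of the 21 under placebo and 10 under RU486. The B cell surface genes Ms4a1 and Cr2 read 310.2 and 15.4 (at least 5.8-fold lower) and 202 and 15.7 (at least 3.87-fold lower), the lineage factor gene Pax5 107 and 6.6 (at least 2.18-fold lower) and the receptor gene Tnfrsf13c, through which B cells survive, 503 and 68.1 (-2.49 log2). The one higher gene, Bcl11a, at 187 and 1309 (2.84 log2), is also made by mammary progenitors. Of 12 plasma cell and immunoglobulin genes 6 were lower, with the constant region of IgA, Igha, at 6958 and 1664 (-1.92 log2) and the J chain gene Jchain at 1372 and 115 (-3.27 log2). Sdc1, higher at 2018 and 7458 (2.01 log2), is made by epithelium beside plasma cells. Of 29 T and NK cell genes 18 were lower and 1 higher. Within the background range lay 0 of the 29 under placebo and 16 under RU486, so the size of many of these differences is not known. The coreceptor genes Cd4 and Cd8b1 read 285 and 7.5 (at least 5.35-fold lower, probe sets from -3.55 to -1.44 log2) and 77.8 and 4.4 (at least 1.67-fold lower), the T cell receptor chain gene Cd3e 475 and 65.6 (-2.45 log2), the costimulator gene Cd28 198 and 2.6 (at least 3.81-fold lower) and the interleukin-7 receptor gene Il7r 659 and 89.4 (-2.55 log2, probe sets from -2.55 to -1.50 log2). The regulatory T cell factor gene Foxp3 differed little at 86 and 65.2 (-0.20 log2), and the cytotoxic genes Gzmb and Prf1 read 41.2 and 40.3 (0.11 log2) and 542 and 376 (-0.38 log2).

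Markers of lymph node tissue were mostly lower too. Of 15 such genes 10 were lower and 0 higher. The follicle chemokine gene Cxcl13 read 889 and 32.8 (at least 16.1-fold lower) and the homing receptor gene Ccr7 288 and 78.1 (-1.56 log2). The summed signal of the 15 genes was 9898 under placebo and 2909 under RU486, and 11 of them were brightest of the 4 arrays in the PAX8PPARg placebo pool. A large part of that sum was Glycam1, given above among the milk genes, at 3649 and 475. On the WT placebo array Glycam1 read 10371 of a sum of 12473. Of the 15 genes, 0 lay within the background range under placebo and 6 under RU486. The part of a lymph node in the lymphocyte differences was not tested.

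Macrophage genes were even between the pools, and neutrophil genes were mostly higher. Of 34 macrophage genes, 2 were higher and 2 lower, with a median of 0.05. The pan-macrophage genes Adgre1, Csf1r and C1qa read 128 and 121 (0.06 log2), 2690.3 and 1955 (-0.32 log2) and 1065 and 943 (-0.04 log2). The exceptions were the scavenger receptor gene Marco at 1135 and 21.4 (at least 20.5-fold lower), and Retnla, a gene of alternatively activated macrophages and of fat, at 3387 and 552 (-2.45 log2), on the lower side, and the arginase gene Arg1 at 327 and 1175 (1.93 log2) and the scavenger receptor gene Msr1 at 189 and 439 (1.28 log2, probe sets from 0.66 to 2.02 log2) on the higher side. Of 19 neutrophil genes 12 were higher and 0 lower. These included the calprotectin genes S100a8 at 123 and 1109 (3.15 log2) and S100a9 at 394 and 2517 (2.76 log2), which keratinocytes make too, the receptor gene Csf3r at 4.3 and 48.2 (at least 2.9-fold higher), the cathelicidin gene Camp at 2.4 and 57.8 (at least 3.33-fold higher) and Padi4, whose enzyme acts in extracellular traps, at 17.6 and 107 (2.01 log2). The granule protease gene Elane lay within the background range on both arrays, and the chemokine receptor gene Cxcr2 was even at 68.7 and 65.7 (0.08 log2). Mast cell genes held 1 higher and 0 lower of 12, the former 8.33% against 7.93% of all genes. MHC class II and other antigen presentation genes were lower at 5 of 18, with H2-DMb2, whose protein helps to load peptides, at 723 and 127 (-2.24 log2) and the immunoproteasome gene Psmb9 at 3053 and 1015 (-1.44 log2), while the class II chain gene H2-Aa read 7232 and 5061 (-0.38 log2). Interferon response genes held 3 higher and 3 lower of 31, with Irf7 at 73.5 and 190.2 (1.34 log2) and Ifi27l2a at 2125 and 587 (-1.69 log2). Their shares, 9.68% each, were near the 7.93% and 7.02% of all genes.

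Genes of blood vessels were lower or within 2-fold. Of 27, 14 were lower and 0 higher, with a median of -1.11. The receptor gene Kdr, through which VEGF acts, read 811 and 206 (-1.76 log2), the angiopoietin receptor gene Tek 552 and 152 (-1.63 log2), the adhesion gene Pecam1 673 and 247 (-1.26 log2) and the clotting factor gene Vwf 391 and 79.3 (-1.96 log2). The lymphatic genes Flt4 and Prox1 were lower at 645 and 263 (-1.11 log2) and 45.1 and 1.1 (at least 1.09-fold lower). The ligand gene Vegfa and the receptor gene Kdr differed in opposite directions. Again the PAX8PPARg placebo array was the brightest of the 4 for 22 of the 27 genes, where Kdr read 314 and 258 on the WT arrays. Of 21 fibroblast genes, 7 were lower, among them the elastin gene Eln at 1492 and 266 (-2.28 log2) and the matrix genes Dpt and Lum at 2728 and 657 (-1.89 log2) and 2047 and 799 (-1.21 log2), and 1 higher, Aspn at 115 and 258 (1.19 log2). Decorin, Dcn, was even at 6442 and 6515 (0.15 log2). Of skeletal muscle genes 4 of 29 were higher and 2 lower, or 13.8% and 6.9%, against 7.93% and 7.02% of all genes. Their differences ran from -2.65 to 2.43, with a median of 0.06. The cardiac troponin gene Tnnt2 was among the largest differences at 59.5 and 2179 (5.00 log2). The troponin genes Tnnc1 at 110.4 and 93.2 (-0.08 log2) and Tnnt3 at 203 and 204 (0.14 log2) were even, and the muscle genes past 2-fold are not named here.

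**Figure D5:**
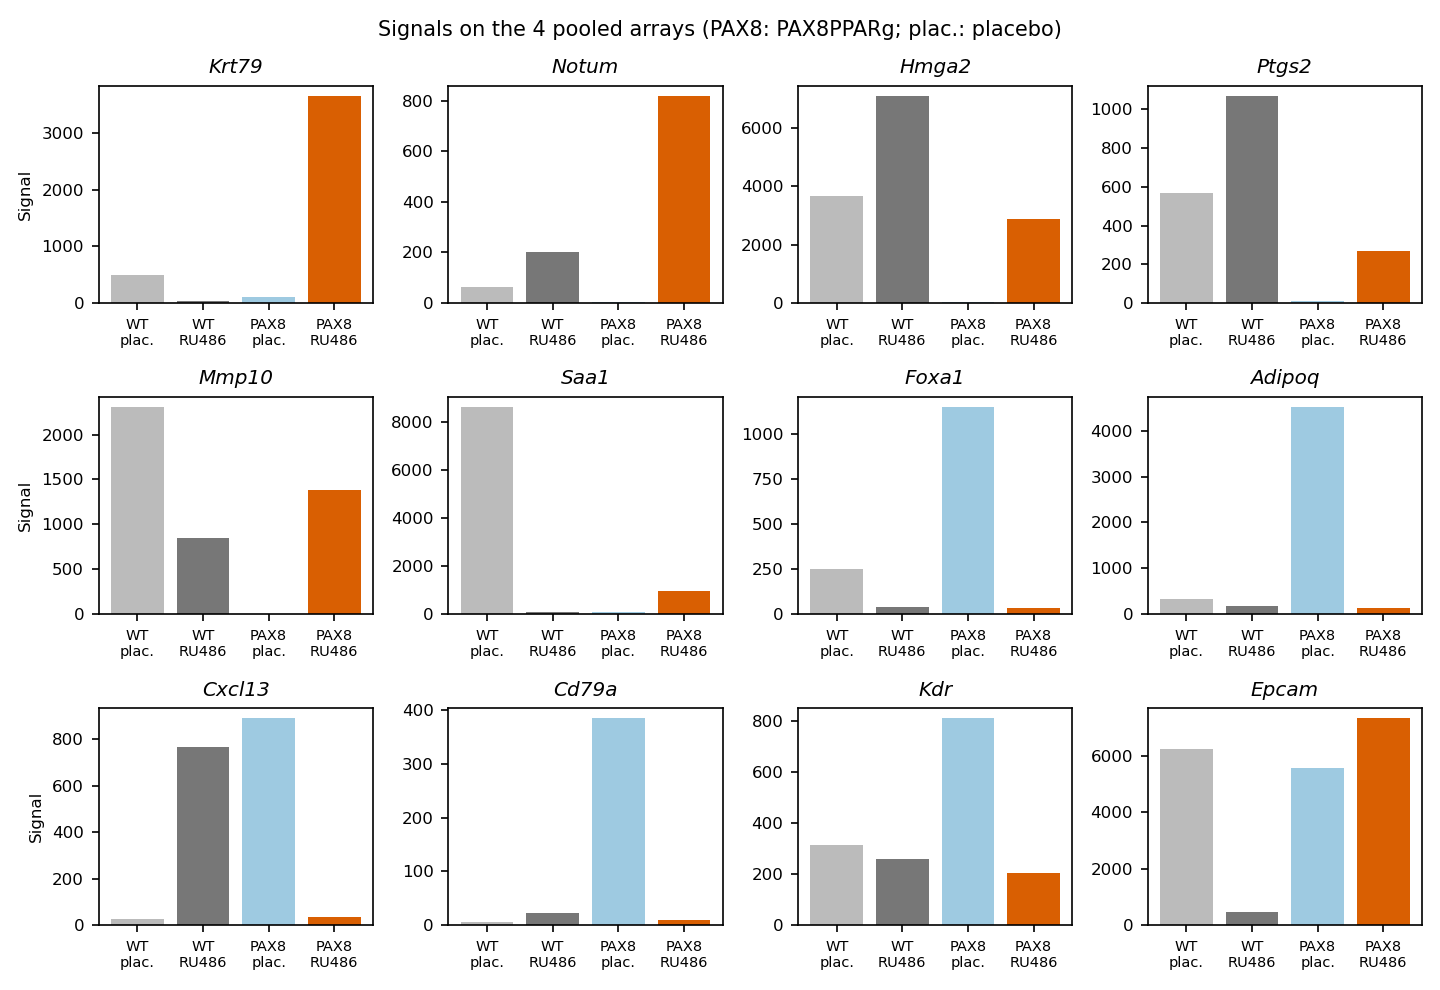
Signals of 12 genes on the 4 pooled arrays (WT placebo, WT RU486, PAX8PPARg placebo, PAX8PPARg RU486), 1 panel per gene, 1 bar per array, linear axes from 0 with a scale of their own. Krt79 and Notum are brightest on the PAX8PPARg RU486 array, Hmga2, Ptgs2 and Mmp10 dimmest on the PAX8PPARg placebo array, and Foxa1, Adipoq, Cxcl13, Cd79a and Kdr brightest on it, with Cxcl13 nearly as bright on the WT RU486 array.

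Proliferation genes differed by small amounts. Of 43 mitotic and replication genes, 1 was 2-fold higher, the mitotic survivin gene Birc5 at 645 and 1287 (1.11 log2), and 0 lower, with a median of 0.46 that stayed at 0.43 with quantile normalization. Mki67, the gene of the proliferation marker Ki-67, read 3166 and 4355 (0.59 log2), and the replication genes Mcm7 and Mcm6 2696 and 2230.4 (-0.14 log2) and 2175 and 1927 (-0.04 log2). At the G1 step the cyclin gene Ccnd1 was higher at 2439 and 4541 (1.03 log2), and so were genes of inhibitors of cyclin-dependent kinases, Cdkn1a at 1468 and 3754 (1.48 log2), Cdkn2a at 33.9 and 135 (1.73 log2) and Cdkn2b at 283 and 921 (1.78 log2). Ribosomal protein genes counted 21 of 34 higher, with a median of 1.10, but they are among the brightest genes of the array and the median became 0.16 with quantile normalization. Of stress genes, the endoplasmic reticulum chaperone gene Hspa5 read 3646 and 7008 (1.07 log2) and the pseudokinase gene Trib3 71 and 214 (1.54 log2). Among transporters, the largest negative difference was that of the glutamate carrier gene Slc1a3, at 624 and 4.3 (at least 11.4-fold lower, probe sets from -4.84 to -3.26 log2), and Slc7a2, the gene of an arginine carrier, was lower at 1917 and 228 (-2.85 log2, probe sets from -2.85 to -1.32 log2). Of 28 solute carriers 5 were higher and 6 lower.

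The WT comparison of the same treatments shares no array with this one, and its values are set beside the groups without a test of the difference, which single arrays do not allow. Epidermal keratins had a median of 2.57 in PAX8PPARg and -3.14 in WT, kallikreins and skin protease inhibitors 1.50 and -3.45, and luminal genes 0.27 and -3.15. The WT RU486 pool was thus low in luminal epithelial signal as a whole, with Epcam at 6249 and 479 in WT, and its part in the WT differences of epithelial genes was not tested. For white adipocyte genes the values were -2.20 and -0.89, for endothelial genes -1.11 and -0.27, for B cell genes -1.73 and 0.79 and for macrophage genes 0.05 and 1.75. Some medians were close in both genotypes: -1.04 and -0.91 for hormone-sensing luminal genes and -0.67 and -0.68 for fatty acid and triglyceride synthesis genes. Contractile genes had -0.57 and -0.61. Of the 30 genes with the largest positive differences in PAX8PPARg, 21 differed 2-fold or more downward in WT and 0 upward, and of the 30 with the largest negative ones 13 did so downward and 5 upward. Of all genes above the level filter, 8.25% differed 2-fold or more downward in WT and 5.5% upward. That filter used the mean of all 4 arrays, so the WT signals took part in choosing both sets of 30 genes. Their WT counts describe the pools and support nothing further. Measured directly between the RU486 pools, the median of PAX8PPARg minus WT was 4.30 for epidermal keratins and 0.06 for white adipocyte genes, and between the placebo pools it was -1.08 and 1.75. For adipocyte genes the RU486 pools were close to each other and the placebo pools apart, and for epidermal keratins the RU486 pools were the farther apart.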

How the data were processed

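RNA was pooled in equal amounts from 5 mice per group, labelled as biotinylated cRNA and hybridised to Affymetrix arrays, 1 array per group, per the labels' protocols. The deposited values are probe set intensity (signal) on a linear scale. Each array has a trimmed mean of about 500 over all probe sets, with 2% left out at each end, as tested on the values; the probe set algorithm was not stated in those protocols. Of 22690 probe sets, 64 were controls, 20380 had 1 gene symbol in the platform annotation, 691 had several and 1555 had none. For each of the resulting 12393 genes, log2(signal + 16) was centred on the array medians, the brightest probe set over the 4 arrays was kept, and RU486 minus placebo was taken with Python 3.11.15, numpy 2.4.6 and pandas 2.3.3. The steps were tested on copies of the placebo array with added noise, a uniform scale factor and known differences. Those copies held neither the higher background range of the RU486 array nor its shift with brightness. Genes at or above the median level were those counted over the whole array, and groups were counted over every measured member, 1407 of 1602 listed entries. With 1 array per group the number of arrays limits the precision and there is no test. Named genes were taken from the 30 with the largest difference on each side above that level, not all of which are named. Others were members of 60 gene groups with a large difference or a needed role, and receptor genes. The members and lists were chosen with earlier results of these data known. Promoter windows were copied from RefSeq (GRCm38.p6) by gene symbol. Alternatives were other pseudocounts, scalings, probe set rules and filters.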

Additional observations from a re-analysis of the deposited data

Results flagged for a closer look

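For 6 gene groups the median difference between RU486 and placebo was at least 2-fold in PAX8PPARg tumours and at least 2-fold in the opposite direction in WT tumours. With 1 pool per group the difference between genotypes was not tested. Epidermal keratins had a median of 2.57 in PAX8PPARg and -3.14 in WT. For cornified envelope genes the medians were 2.38 and -1.44, and for kallikreins and skin protease inhibitors 1.50 and -3.45. Desmosome genes stood at 1.20 and -1.84, hair follicle genes at 1.35 and -1.72, and neutrophil-attracting chemokines and their receptors at 1.05 and -1.12. General luminal genes were lower in WT as well, at -3.15, but not in PAX8PPARg, at 0.27, so in WT the epithelial groups were lower together with the epithelial markers.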

How the results depend on the processing

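The count of genes at least 2-fold higher ran from 230 without centring to 324 with a pseudocount of 1, against 313 as reported, and that of genes at least 2-fold lower from 277 with a pseudocount of 64 to 414 without centring, against 316. With quantile normalization they were 251 and 331. Counting all genes in place of those at or above the median level gave 983 higher and 870 lower, and counting all genes above the background range on both PAX8PPARg arrays gave 824 and 564. Requiring nothing of the background range left both counts at 313 and 316. No named gene counted as 2-fold different and no gene group with a median of at least 1.00 log2 in size changed direction under any of the 6 alternatives run for them. Of 297 such named genes, 50 came under 2-fold with a pseudocount of 64, 15 with quantile normalization, 14 with the mean of all probe sets and 12 without centring. The alternatives did not read each other probe set of a gene alone. Some counted genes had probe sets of opposite sign, such as Klf9 (-1.32 to 1.03 log2) and Tsc22d3 (-1.36 to 0.97 log2). Of 60 group medians, 10 changed sign with another scaling, and none of these was over 0.24 log2 in size as reported. Probe sets of the same gene differed among themselves with an SD of 0.32 log2 over 2267 genes, which is the only error these data give and does not hold the spread between mice, pools or hybridisations. No paired analysis was possible because each group has 1 array and the labels carry no replicate numbers. Leaving out a replicate was not possible for the same reason. Levels within the background range, 35.3 on the RU486 array, limit what can be read of genes that were low there, and signals of the brightest genes differed with scaling.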

Other observations

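Cell contact genes beyond the desmosome had members on both sides, with 7 of 25 higher and 5 lower in the RU486 pool, against 7.93% and 7.02% of all genes. The P-cadherin gene Cdh3 of basal cells was higher at 89.9 and 196 (1.14 log2), as was Gjb6, a connexin gene of epidermis, at 47.3 and 103 (1.05 log2), and the N-cadherin gene Cdh2 was lower at 429 and 171 (-1.12 log2). The tight junction genes Cldn11 and Cldn2 were higher at 83.4 and 508 (2.53 log2) and 28.5 and 93.8 (1.44 log2), while Cldn5 of vessels was lower at 444 and 117 (-1.65 log2) and Cldn10 at 381 and 62.5 (-2.20 log2). Binding proteins of insulin-like growth factors differed in both directions. Igfbp3 and Igfbp2 were higher at 637 and 2312 (1.97 log2) and 499 and 1323 (1.51 log2), and Igfbp5, made by mammary epithelium in involution, was lower at 7297 and 3205 (-1.05 log2). The growth factor genes Igf1 and Igf2 read 1481 and 684 (-0.96 log2) and 89.3 and 85 (0.07 log2).

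Of 28 solute carriers, 5 were higher and 6 lower. The phosphate carrier gene Slc20a1 was higher at 349 and 947 (1.53 log2) and the arginine carrier gene Slc7a1 at 82.6 and 199 (1.26 log2), whereas Slc7a2, another carrier of arginine, was lower as given above. The glutamine carrier genes Slc1a5 and Slc38a1 were lower at 531 and 130.1 (-1.77 log2) and 707 and 282 (-1.15 log2), and the insulin-dependent glucose carrier gene Slc2a4 of fat and muscle at 372 and 125 (-1.33 log2). The stress genes Ddit3 and Hspa1a were higher at 166 and 337 (1.09 log2) and 121 and 262 (1.15 log2), and Gclm, a subunit of the enzyme that starts glutathione synthesis, was lower at 1013 and 402 (-1.17 log2). Lactoferrin, a milk protein that neutrophil granules also hold, was higher at 604 and 2937 (2.38 log2) for Ltf. In peripheral nerve genes 2 of 13 were lower and 0 higher.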
